A study of Mus musculus with 4 samples.

Results

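The ligands of the TGF-beta superfamily were followed in mTEChi, the MHC class II-high medullary thymic epithelial cells, by RNA-seq of libraries labelled WT and Aire-KO. Members were taken by name, as the RefSeq IDs of 34 listed genes, which gave 34 genes (37 RefSeq IDs) of 23571 genes (30794 RefSeq IDs) counted. They comprise 3 TGF-betas, 10 BMPs, 11 GDFs (myostatin included), 5 activin and inhibin subunits, Nodal with both Lefty genes, Amh and Bmp1. Bmp1 carries a BMP name but encodes a secreted protease. Each genotype has 2 libraries, since the study ran a first experiment and a replicate, each with a WT and an Aire-KO library by their labels. Cells were sorted as CD45-negative, Ly51-negative and high for I-A/E from thymi of 4-week-old mice, with 4 mice pooled per library. All mice were on the C57BL/6 (B6) background. The WT mice were purchased, whereas mice with a germline deficiency of Aire were bred in the institute, so that genotype and origin of the mice cannot be told apart.

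Most ligands of this superfamily are made as precursors, cleaved and secreted as dimers, and signal through paired type I and type II serine/threonine kinase receptors. TGF-betas, activins, Nodal and some GDFs act mainly through Smad2 and Smad3, and most BMPs and other GDFs through Smad1, Smad5 and Smad9. Many are known as embryonic morphogens or as products of a single organ, such as the oocyte, heart or liver. Aire is known for inducing the transcription of genes with tissue-restricted expression in mTEChi.

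The libraries held 138085586 (WT) and 120261406 (Aire-KO) counts in the first experiment, then 80970777 and 174093458 in the replicate, over 1 RefSeq ID per gene. Counts of Aire itself were higher under the label Aire-KO (200697 and 175884) than under the label WT (87229 and 36597), and how the deleted part of the gene bears on these counts was not tested. Every direction given here is therefore that of the labels. The 13 markers of MHC-II-high mTEC were detected in all libraries. Their summed level was 20570 and 32862 CPM (counts scaled to a common library size, after TMM normalization) in the libraries labelled WT. In those labelled Aire-KO it was 37573 and 43487 CPM, and Cd74, H2-Aa and H2-Ab1 made up most of each sum. Epcam, Krt5 and Krt14 had log2 fold changes (WT over Aire-KO) of 0.24, 0.44 and 0.15, while those of the other markers in this list were below 0. Of 11 fibroblast markers, 4 were lower in the libraries labelled WT (254 and 214 CPM summed, against 538 and 478 CPM). Of 10 markers of dendritic cells and macrophages 2 were higher, Adgre1 and Itgam, and the median log2 fold change of the 10 was 1.42, while their sum, most of it Lyz2, was 449 and 810 against 504 and 518 CPM. Of 11 thymocyte markers 1 was higher (49.5 and 80.6 against 43.7 and 55.0 CPM). Of 8 markers of cortical epithelial cells 1 was higher, Enpep (19.3 and 16.6 against 3.19 and 2.51 CPM). The sum of these 8, with Ccl25 as its largest part, was 642 and 751 against 1028 and 814 CPM. None of 7 endothelial markers passed the test in edgeR. With the experiment as a block, a second fit described below with the ligands, 5 dendritic cell and macrophage, 4 thymocyte, 2 cortical epithelial and 1 fibroblast markers were higher, and 7 fibroblast, 6 MHC-II-high mTEC and 1 cortical epithelial markers were lower. The 6 MHC-II-high mTEC markers lower with the block included Aire itself. Of all genes tested, 6.48% were higher and 0.286% lower in edgeR without the block, and 15.6% and 9.34% with it. The part of these other cells in the ligand counts was not tested, and in bulk RNA fewer cells of a type and less RNA per cell cannot be told apart.

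Levels of the ligands were first compared per length, as RPKM. In the libraries labelled WT the 34 genes spanned 56.8 ± 18.8 RPKM for Gdf15 to 0.0821 ± 0.0210 RPKM for Bmp15 (mean ± SD, n = 2). Of these genes, 8 had a mean WT level over 10 RPKM, 18 were over 1 RPKM, and 16 were at or under 1 RPKM. The median over the ligands was 1.62 RPKM, whereas the median over 19946 genes with a length and at least 1 read was 4.81 RPKM. After Gdf15, a stress-induced cytokine, the highest means in WT were those of Bmp2 (28.8 ± 17.95 RPKM), Bmp7 (23.9 ± 8.71 RPKM) and Bmp3 (21.0 ± 2.34 RPKM), all of them known from bone or kidney development. Lefty2, an antagonist of Nodal, ranked next in WT (13.2 ± 1.70 RPKM) and was at 0.104 ± 0.0214 RPKM in Aire-KO. In the libraries labelled Aire-KO, 7 ligands had a mean under 0.1 RPKM, against 1 in those labelled WT. The same count over all genes was not made, so whether the ligands differ from other genes in this is not known.

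**Figure D1:**
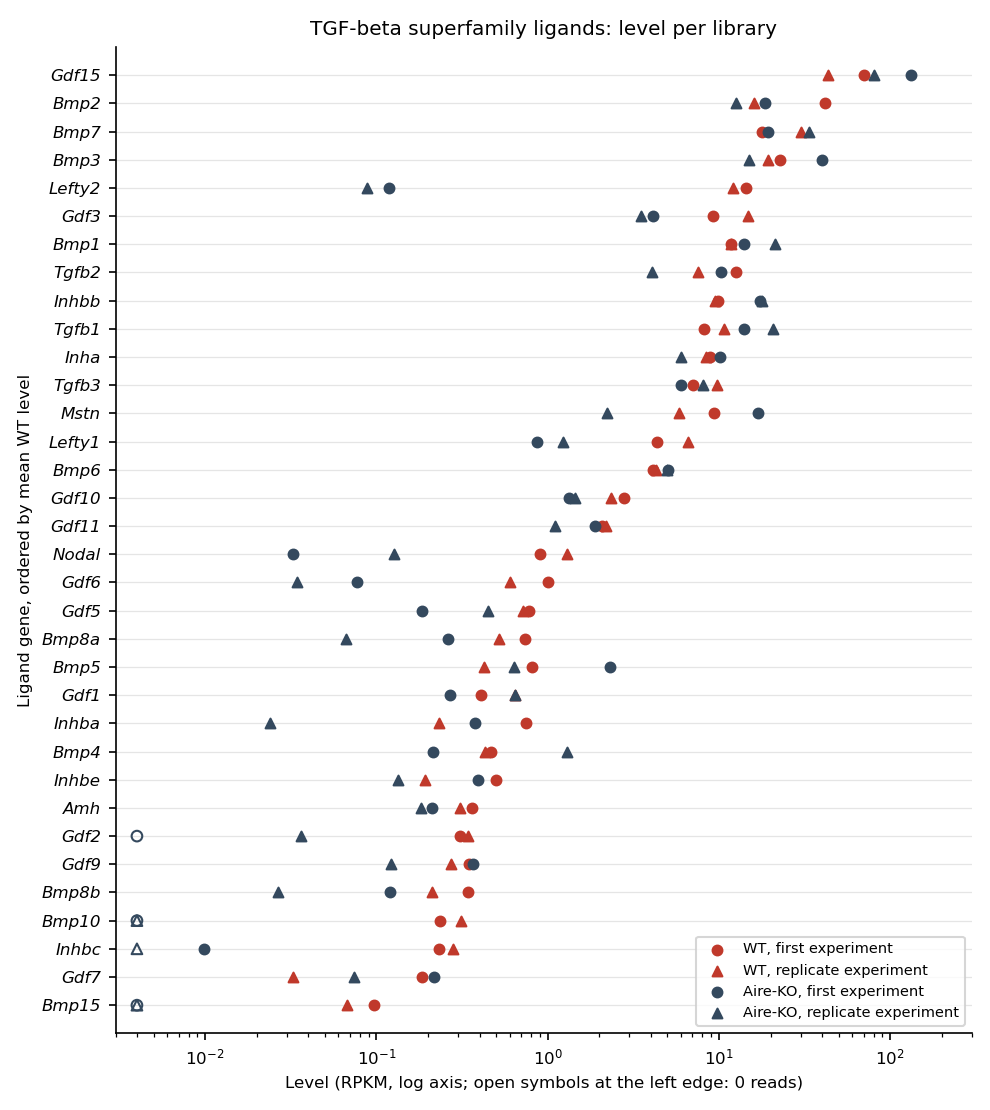
Level of each ligand gene in RPKM (x axis, log scale) in the 4 libraries, with genes ordered by their mean WT level (y axis); circles are the first and triangles the replicate experiment, and open symbols at the left edge stand for 0 reads. Lefty2 lies near 13.2 RPKM in WT and near 0.104 RPKM in Aire-KO, while Gdf15, Bmp2, Bmp7, Bmp3 and Bmp1 lie above 10 RPKM in all 4 libraries.

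Differences between genotypes were then tested with edgeR's quasi-likelihood test over all genes. All 34 ligands passed the filter on low counts. At an adjusted p under 0.05, 4 ligands (11.8%) were higher in the libraries labelled WT: Lefty2, Lefty1, Gdf6 and Bmp10. Over all 20265 genes tested, 6.48% were higher. No ligand was lower in this test, against 0.286% of all genes. The test gave 10 ligands an unadjusted p under 0.05, as it did 21.8% of all genes, and DESeq2 called 9 higher and 0 lower, beside 12.8% and 1.91% of all genes. Since the libraries of one experiment deviated together from their group means, the experiment was also entered as a replicate block. With the block, 9 ligands (26.5%) were higher, beside 15.6% of all genes, and 3 (8.82%) were lower, beside 9.34% of all genes. The 5 added on the higher side were Nodal, Gdf3, Gdf2, Inhbc and Bmp2, and the 3 on the lower side were Tgfb1, Gdf15 and Inhbb. Normalised levels of both WT libraries lay above both Aire-KO libraries for 15 ligands (44.1%; all genes, 29.1%) and below them for 5 (14.7%; all genes, 20.9%), and the groups overlapped for the other 14. The median log2 fold change (WT over Aire-KO) was 0.50 over the ligands and −0.03 over all genes.

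**Figure D2:**
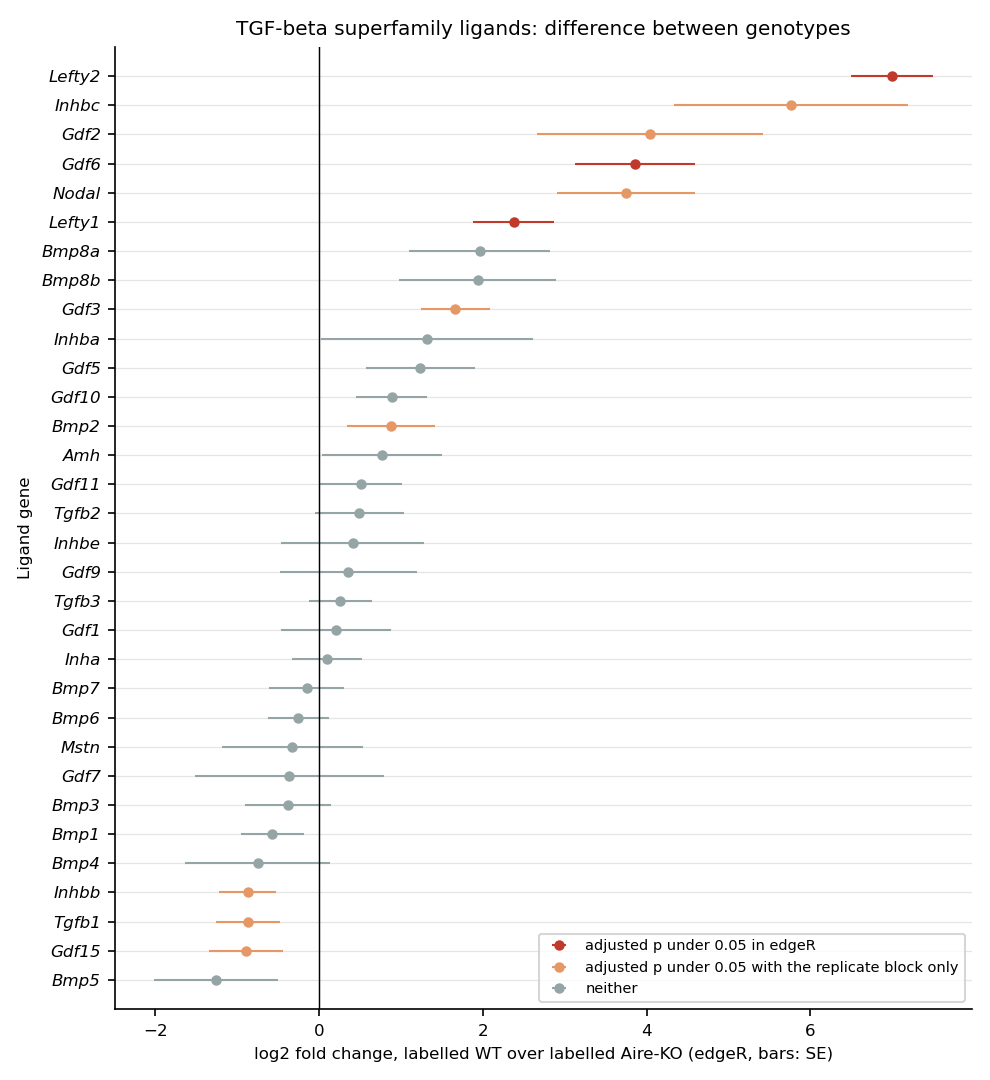
Log2 fold change of each ligand (x axis, WT over Aire-KO by the labels, edgeR, bars are standard errors) for the 32 genes with a read in Aire-KO, ordered by size (y axis). Lefty2 stands at 6.99 and the 3 ligands lower only with the replicate block, Tgfb1, Gdf15 and Inhbb, between −0.87 and −0.90.

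Among the ligands with reads in Aire-KO, the largest fold was found in the Nodal branch. Nodal is the ligand that patterns mesoderm and the left-right axis in the embryo, and Lefty1 and Lefty2 are secreted antagonists that bind Nodal or its co-receptors. Counts are given below for WT and Aire-KO, in this order, within each experiment. Lefty2 (NM_177099, chromosome 1 of mm9 from 182823239 to 182829234, plus strand) had 5607 and 30 counts in the first experiment, then 2580 and 36 in the replicate. Both libraries labelled WT thus stood far above both labelled Aire-KO, with no overlap. The fold was 128 within the first experiment and 136 within the replicate experiment, and the log2 fold change over all 4 libraries was 6.99 (SE 0.50, adjusted p = 0.0164 from edgeR, n = 2 per genotype). Its adjusted p stayed under 0.05 in all 10 alternatives run, with a highest value of 0.0176. The difference was seen in each part of the transcript: in the last exon 4385 and 15 reads, then 1983 and 24, and in the exons before it 1083 and 15, then 554 and 12.

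Lefty1, its neighbour on chromosome 1 (182865153 to 182868531), had 1108 and 143 counts in the first experiment, then 921 and 327. Both WT libraries were above both Aire-KO libraries, by 5.32-fold and 5.35-fold, and the log2 fold change was 2.37 (SE 0.50, adjusted p = 0.0452 from edgeR). Without the WT library of the replicate experiment the adjusted p rose to 0.150, the highest of the 10 alternatives, the lowest being 3.28e-04. Both genes kept reads in Aire-KO, and Lefty2 was the higher of the pair in WT and the lower in Aire-KO, at 0.104 RPKM against 1.05 ± 0.259 RPKM for Lefty1. These genes are near-identical copies: their coding sequences, each 1107 bases long, match at 91.9% of positions. Of all 50-base windows of the transcripts, 281 occur in both, which is 17.9% of those of Lefty1 and 11.6% of those of Lefty2. How reads matching both were assigned is not given in the sources used here, so part of the counts of both genes, and the size of their folds, is uncertain. This bears most on the lower of the pair, which was Lefty1 in WT and Lefty2 in Aire-KO. The longest stretch of coding sequence in which a read cannot tell them apart is 140 bases long.

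Nodal itself (NM_013611, chromosome 10 of mm9 from 60880720 to 60888086) had 299 and 7 counts in the first experiment, then 238 and 44. It was high in both WT libraries and low in both Aire-KO libraries, by 29.3-fold and 10.3-fold. The log2 fold change was 3.75 (SE 0.84), with an adjusted p of 0.0537 in edgeR and of 0.00418 with the replicate block. Over the alternatives the log2 fold change ranged from 3.10 to 5.05. Gdf3, a Nodal-like ligand known from pluripotent cells, had 3092 and 888 counts, then 2740 and 1220. Its WT libraries were higher by 2.39-fold and 4.26-fold without overlap, at an adjusted p of 0.0703, and of 0.00343 with the block. Gdf1, which pairs with Nodal in the embryo, had 176 and 75 counts, then 153 and 289, and its groups overlapped (log2 fold change 0.20, SE 0.67, adjusted p = 0.921 from edgeR). All exon bases of Gdf1 lie within exons of Cers1 (Lass1 in the mm9 annotation), on the same strand, and Cers1 had 164 and 72, then 146 and 244 counts, so the pair cannot be told apart.

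Both co-receptors of the EGF-CFC family, which Nodal and Gdf3 need, had more reads in WT in each experiment. Tdgf1 (Cripto) had 1141 and 47 counts, then 441 and 8, and Cfc1 (Cryptic) had 77 and 3, then 57 and 9. For both, each WT library was above each Aire-KO library. Tdgf1 reached a log2 fold change of 4.63 (SE 1.06), at an adjusted p of 0.0562 in edgeR and of 8.19e-04 with the block. Cfc1 reached 3.70 (SE 0.94, adjusted p = 0.0701, with the block 0.0591), and its fold within the first experiment had a 95% exact interval of 5.81 to 87.3 from counting error alone.

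**Figure D3:**
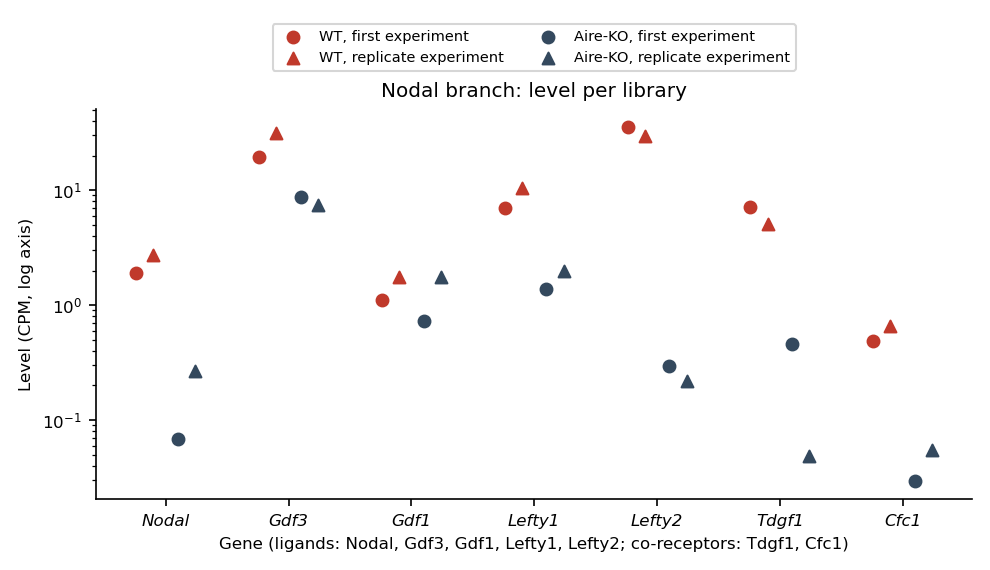
Level in CPM (y axis, log scale) of 5 ligands and 2 co-receptors of the Nodal branch (x axis) in the 4 libraries; circles are the first and triangles the replicate experiment. The WT symbols lie above the Aire-KO symbols without overlap for every gene shown except Gdf1.

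Among the other GDFs, Gdf6, known for joint, skull and eye development, was called. Gdf6 (NM_013526, chromosome 4 of mm9 from 9771519 to 9789492) had 561 and 28 counts in the first experiment, then 186 and 20. It was higher in both WT libraries, 13.8-fold and 17.7-fold, with a log2 fold change of 3.86 (SE 0.73, adjusted p = 0.0370 from edgeR). Without the WT library of the first experiment the adjusted p was 0.0852, the highest of its alternatives (lowest 1.98e-06). Gdf2 (BMP9), a circulating ligand made mainly by liver, had 145 and 0 counts, then 89 and 18. A count of 0 allows up to 3 counts, so Gdf2 was at least 33.2-fold higher in WT within the first experiment, and it was 9.38-fold higher within the replicate experiment. Its adjusted p was 0.147 in edgeR and 0.0345 with the block. Its log2 fold change was 4.04 with all libraries and ranged from 3.13 to 9.81 over the alternatives. Nearly all of its reads fell in the last exon (142 and 0, then 89 and 18), and the exons before it held 3 reads in 1 WT library.

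The remaining GDFs passed no test on the higher side. Gdf5, known for joint formation, had 285 and 44 counts, then 145 and 171 (log2 fold change 1.23, SE 0.66, adjusted p = 0.371 from edgeR). Its exons overlap those of Gm15557 on the opposite strand over 40.3% of their length, and the libraries do not mark strand. Gdf10 had 1110 and 344, then 515 and 601 counts, and Gdf11, which patterns the body axis, had 591 and 353, then 348 and 329. For these 3 genes the normalised levels of both WT libraries were above those of both Aire-KO libraries, and the adjusted p from edgeR ranged from 0.318 to 0.677. Gdf9, an oocyte factor, was at 99 and 68, then 43 and 36 counts, and Gdf7 at 41 and 31, then 4 and 17, all of the latter in the last exon. Myostatin (Mstn), which limits muscle growth, had 3978 and 4641, then 1368 and 986 counts. Gdf9, Gdf7 and Mstn overlapped between genotypes.

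Gdf15 stood at the other end. It had 12015 and 14616 counts, then 4123 and 14285, that is 75.9 and 143 CPM, then 47.2 and 86.6 CPM. Both WT libraries lay below both Aire-KO libraries. The log2 fold change was −0.90 (SE 0.45, adjusted p = 0.333 from edgeR, and 0.00947 with the block). Over the alternatives the adjusted p of Gdf15 ranged up to 0.892, and the block was the only one of the 10 under 0.05.

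Of the BMPs, Bmp10 was called, and Bmp15 had the same pattern. Bmp10, known from the developing heart, had 49 and 0 counts in the first experiment, then 36 and 0 (NM_009756, chromosome 6 of mm9 from 87378996 to 87384506). Both Aire-KO libraries were at 0. Set against a floor of 3 counts per library, Bmp10 was at least 11.2-fold and at least 22.8-fold higher in WT within the experiments (adjusted p = 0.0458 from edgeR). The call was lost without either WT library (adjusted p = 0.103 and 0.199, the highest over the alternatives, the lowest being 0.00140). Bmp15, an oocyte factor on chromosome X, had 47 and 0, then 18 and 0 counts, at least 10.8-fold and at least 11.4-fold higher. Its adjusted p was 0.0563 in edgeR, 0.0557 with the block and 0.00919 in DESeq2. Such bounds and intervals cover counting error only. Bmp10 and Bmp15 were read mostly in the last exon (37 and 36 reads, and 35 and 16 reads, in the WT libraries).

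Bmp8a and Bmp8b, related genes on chromosome 4 known from the germ line, had near-equal folds. Bmp8a had 223 and 51, then 87 and 21 counts, and Bmp8b 159 and 36, then 54 and 13. Both were higher in each WT library, 3.002-fold and 7.86-fold for Bmp8a and 3.03-fold and 7.88-fold for Bmp8b, but neither passed the test (adjusted p = 0.262 and 0.324 from edgeR, 0.0845 and 0.135 with the block). Without the first Aire-KO library, which leaves 1 library in that group, the log2 fold changes were 3.23 and 3.35. With all libraries they were 1.96 and 1.93. They share 210 windows of 50 bases, 8.91% of those of Bmp8a and 7.65% of those of Bmp8b, including a run of 182 identical coding bases. Reads from these windows cannot be told apart, so part of the counts of both genes may not be independent.

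Of the more abundant BMPs, Bmp2 was called with the block only. It had 16503 and 4812 counts, then 3535 and 5236, which is 104 and 46.9 CPM, then 40.4 and 31.7 CPM. Within each experiment WT was higher (2.35-fold and 1.28-fold), while across experiments the groups overlapped, and the adjusted p was 0.442 in edgeR and 0.0458 with the block. Without the WT library of the first experiment the log2 fold change of Bmp2 moved from 0.88 to −0.04 in the fit without the block. Its direction in that fit thus rests on that library, whereas the replicate experiment alone had WT higher (1.28-fold). Bmp7 gave 34.9 and 38.2 CPM, then 59.1 and 66.2 CPM (log2 fold change −0.15, SE 0.46). Bmp3 gave 70.6 and 124 CPM, then 60.3 and 46.9 CPM, thus lower in WT in the first experiment and higher in the replicate. Bmp6, which controls hepcidin and iron in the liver, was at 9.87 and 12.1, then 10.3 and 12.05 CPM (log2 fold change −0.26, SE 0.37). Bmp4 was at 147 and 44, then 75 and 424 counts, and Bmp5 at 322 and 603, then 94 and 264. The Aire-KO library of the replicate experiment held the highest Bmp4 level, 2.57 CPM against 0.429 to 0.929 CPM in the others, and it also had the highest sum of endothelial markers, 105 CPM against 31.5 to 54.2 CPM. The part of endothelial RNA in Bmp4 was not tested. None of Bmp3, Bmp4, Bmp5, Bmp6 and Bmp7 passed the test with or without the block. The log2 fold change of Bmp5, −1.26 with all libraries, was −1.92 without the replicate Aire-KO library and −0.04 without the first. Of the exon bases of Bmp5, 46.7% overlap Gm16662 on the opposite strand.

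Among activin and inhibin subunits, a liver gene was higher and an abundant subunit lower in WT, neither of them called without the block. Inhbc, the liver-expressed activin beta C subunit, had 72 and 2 counts in the first experiment, then 48 and 0. WT was higher in both, 24.7-fold in the first (95% exact interval 6.599 to 208, counting error only) and at least 30.4-fold in the replicate. The adjusted p was 0.0661 in edgeR and 0.0372 with the block. The log2 fold change of Inhbc was 5.77 with all libraries and ranged from 4.60 to 9.10 over the alternatives. Inhbb, a subunit of activin B, had 6682 and 7619, then 3506 and 12593 counts, or 42.2 and 74.3, then 40.1 and 76.3 CPM. Both WT libraries were below both Aire-KO libraries (log2 fold change −0.87, SE 0.35, adjusted p = 0.214 from edgeR and 0.0115 with the block). Inhba, the activin A subunit, had 181 and 59, then 31 and 6 counts, with overlapping groups (adjusted p = 0.670). The log2 fold change of Inhba was 1.32 with all libraries and ranged from 0.21 to 4.34 over the alternatives. Inha, the subunit that makes inhibins, was at 12.9 and 14.8, then 12.3 and 8.78 CPM, and Inhbe, another liver subunit, at 169 and 86, then 36 and 47 counts, neither passing the test.

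No TGF-beta proper passed the test without the block. Tgfb1, the isoform best known in immune regulation, had 2718 and 2997, then 1948 and 7113 counts, or 17.2 and 29.2, then 22.3 and 43.1 CPM. WT was below Aire-KO without overlap (log2 fold change −0.87, SE 0.39, adjusted p = 0.270 from edgeR and 0.0182 with the block). The fibroblast marker sum was lower in the same libraries, and its part was not tested. Tgfb2 was at 59.6 and 48.7, then 35.6 and 19.1 CPM, and Tgfb3 at 23.8 and 20.2, then 32.8 and 27.2 CPM. Within each experiment WT was higher for both, 1.29-fold and 1.87-fold for Tgfb2 and 1.25-fold and 1.21-fold for Tgfb3, and the groups overlapped across experiments (adjusted p = 0.718 and 0.804 from edgeR). Bmp1, the procollagen C-proteinase, was at 47.1 and 55.5, then 45.5 and 82.1 CPM, lower in WT without overlap (adjusted p = 0.488, and 0.102 with the block). Amh, the hormone of Müllerian duct regression, had 95 and 36, then 45 and 50 counts, above in WT after normalization (adjusted p = 0.656 from edgeR).

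Within each experiment a group is 1 library, so no spread between libraries can be measured. The study's threshold of 3-fold was applied with median-of-ratios size factors, without the Z-score criterion that the study also used. Any gene with reads in WT and none in Aire-KO counted as past the threshold. The threshold was reached in both experiments by 10 ligands (29.4%; all genes, 17.2%): Lefty2, Lefty1, Nodal, Gdf6, Gdf2, Bmp8a, Bmp8b, Bmp10, Bmp15 and Inhbc. At least 3-fold lower in both experiments were 0 ligands, and 0.858% of all genes. Bmp8a and Bmp8b lay just inside the threshold, and Gdf3 (2.39-fold) and Inhba (2.11-fold) just outside it in the first experiment. Of the 10, only Lefty2 and Lefty1 had mean WT levels above 5 RPKM, and 8 were at or under 1.10 RPKM.

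**Figure D4:**
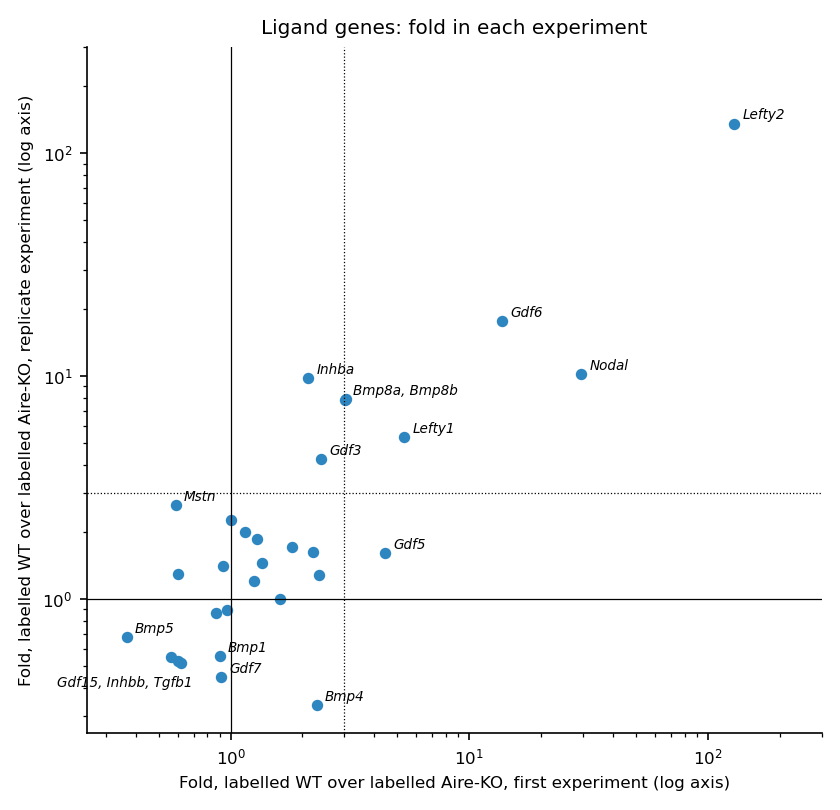
Fold of WT over Aire-KO by the labels in the first experiment (x axis) and in the replicate experiment (y axis), both log scales, for the 30 ligands with a read in both Aire-KO libraries; dotted lines mark 3-fold and solid lines 1-fold. Lefty2 (128 and 136) lies apart from the rest, and Gdf15, Inhbb and Tgfb1 lie together near 0.6 and 0.5.

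Promoters were read for the ligands higher in WT with the block, to show the sequence at their starts. RefSeq promoters (GRCm38.p6) were matched for 22 of the 34 genes, by 24 entries, and of these 9 ligands Lefty1, Lefty2, Gdf3, Gdf6 and Bmp2 had none. The last 100 bases before the start are shown for the other 4, Nodal, Bmp10, Gdf2 and Inhbc, and for Tgfb1 as an abundant ligand of the opposite direction. Capitals mark the GC box (GGGCGG), the TATA box (letters TATAAA) or the CAAT box (letters CCAAT) on either strand, so that a GC box of the other strand reads CCGCCC.
Nodal, chr10:61417872-61417971, plus strand: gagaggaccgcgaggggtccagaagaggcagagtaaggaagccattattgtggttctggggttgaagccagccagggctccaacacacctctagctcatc
Bmp10, chr6:87428894-87428993, plus strand: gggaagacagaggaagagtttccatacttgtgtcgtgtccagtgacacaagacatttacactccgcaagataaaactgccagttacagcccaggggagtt
Gdf2, chr14:33940939-33941038, plus strand: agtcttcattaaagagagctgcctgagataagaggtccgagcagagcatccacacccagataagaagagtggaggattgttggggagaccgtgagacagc
Inhbc, chr10:127370549-127370648, minus strand: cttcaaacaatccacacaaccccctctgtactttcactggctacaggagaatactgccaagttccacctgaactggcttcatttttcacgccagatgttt
Tgfb1, chr7:25686902-25687001, plus strand: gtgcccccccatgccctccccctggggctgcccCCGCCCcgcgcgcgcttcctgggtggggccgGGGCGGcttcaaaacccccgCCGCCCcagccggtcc

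Over the 250 bases before the start, GGGCGG was found in 11 of the 24 ligand entries and in 32.7% of 32851 promoters, TATAAA in 6 and 12.4%, and CCAAT in 9 and 33.8%. GGGCGG was not among the letters of the windows of Nodal, Bmp10, Gdf2 and Inhbc. Those of Nodal and Bmp10 held CCAAT, that of Gdf2 held TATAAA, and that of Inhbc held none of these motifs. Of the other ligands past 3-fold in both experiments, Bmp8a and Bmp8b held GGGCGG and Bmp15 did not. Of the 3 ligands lower in WT with the block, the windows of Tgfb1 and Inhbb held GGGCGG and both entries of Gdf15 did not. The observed over expected CpG ratio, which corrects the number of CG pairs for base composition, was 0.170 for Nodal, 0.211 for Bmp10, 0.317 for Gdf2 and 0.149 for Inhbc, under the median of 0.374 over all promoters. So were 13 of the 24 ligand entries in all, these 4 included. Among the 3 ligands lower with the block it was 0.5997 for Tgfb1, 0.727 for Inhbb, and 0.306 and 0.0532 for the entries of Gdf15. For Bmp8a, Bmp8b and Bmp15 it was 0.503, 0.645 and 0.202. These are descriptions of sequence, chosen with the levels known, and a match is no binding site.

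The receptors, Smads, inhibitors and targets of the pathway were read from the same test. At the same threshold in edgeR, 2 of these 69 genes were higher and 1 was lower, and with the block 12 were higher and 6 lower. The shares of all genes given above were 6.48% and 0.286%, and with the block 15.6% and 9.34%. The 2 genes called higher without the block, Nog and Sost, are secreted BMP or Wnt antagonists. Noggin (Nog), which sequesters BMPs, had 70 and 0 counts, then 64 and 0, at least 16.02-fold and at least 40.5-fold higher in WT (adjusted p = 0.0372). Sclerostin (Sost), the osteocyte antagonist, had 1352 and 187, then 781 and 170 counts (log2 fold change 2.62, SE 0.51, adjusted p = 0.0388).

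No receptor or Smad was called without the block. Of 7 type I receptors 1 was higher and 1 lower with it, the lower one being Acvr1c (ALK7), at 9.14 and 19.3, then 2.59 and 4.75 CPM (adjusted p = 0.590 from edgeR, and 0.0348 with the block). The first by p were Acvr1b, the activin and Nodal receptor ALK4, at 28.6 and 19.0, then 31.7 and 17.8 CPM (adjusted p = 0.318, and 0.0451 with the block), and Acvr1 (adjusted p = 0.589, and 0.165 with the block). Of 5 type II receptors, Amhr2, the receptor of Amh, had 409 and 20 counts, then 310 and 84 (log2 fold change 3.11, SE 0.70, adjusted p = 0.0540, and 0.00424 with the block), and Bmpr2 followed at an adjusted p of 0.649. Of 8 Smads, Smad3 and Smad2 came first, at 37.9 and 75.6, then 46.8 and 80.2 CPM for Smad3 and 61.0 and 98.7, then 42.5 and 82.1 CPM for Smad2. Both were lower in both WT libraries (adjusted p = 0.225 and 0.308 from edgeR, 0.0112 and 0.0156 with the block). Among 8 co-receptors, endoglin (Eng), chosen after its values were seen, had 7188 counts in the Aire-KO library of the replicate experiment and 458 to 811 in the others. That library also had the highest endothelial marker sum given above, and the part of endothelial RNA in Eng was not tested.

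Among 14 genes of latency and activation none was called without the block, the first by p being Ltbp4 (adjusted p = 0.332) and Pcsk5 (0.410). The 12 target genes had a median log2 fold change of 0.48, and none was called without the block. Id2, an inhibitor of basic helix-loop-helix factors induced by BMPs, came first at 84.4 and 29.8, then 74.1 and 49.04 CPM, above in both WT libraries (log2 fold change 1.01, SE 0.41, adjusted p = 0.219 from edgeR, and 0.0138 with the block). Msx1 followed at an adjusted p of 0.457.

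**Figure D5:**
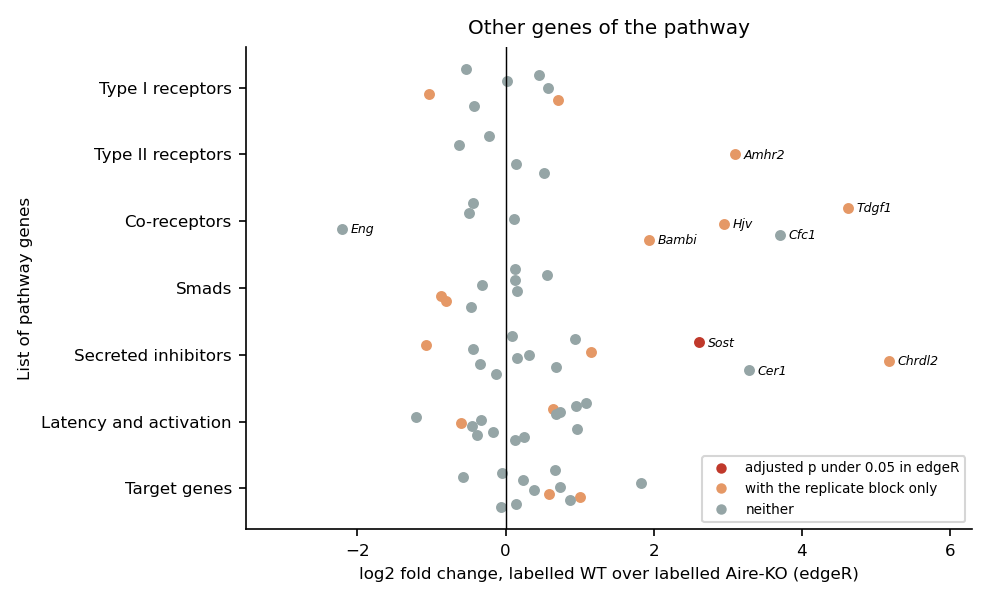
Log2 fold change (x axis, WT over Aire-KO by the labels, edgeR) of other genes of the pathway, grouped by list (y axis), without Nog, whose Aire-KO libraries are at 0, and 1 more gene that is counted but not drawn; points are genes. Sost (2.62) is the called gene among those drawn, and Tdgf1, Cfc1, Chrdl2 and Amhr2 lie to the right.

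The study asked whether genes induced by Aire use short 3’UTRs, by the d3’UTR ratio: reads per bp downstream of the proximal polyadenylation site over reads per bp of the last exon upstream of it. A d3’UTR was annotated for 8 ligands, for Bmp1 only in a noncoding RefSeq entry, whereas the study took the ratio per coding (NM) RefSeq ID. Of the 8, that of Gdf1 is shorter than the 50 bp reads and gave no usable ratio. The medians over the other 7 were 0.386 and 0.398, then 0.461 and 0.0843 (WT and Aire-KO of each experiment), beside 0.429 and 0.405, then 0.348 and 0.330 over all genes with a ratio. The 0.0843 is the ratio of Gdf10, from 8 d3’UTR reads. In that library Gdf6 and Inhbe had 0 d3’UTR reads, over 14 and 28 reads upstream, and entered the median as 0. Unlike those of the ligands, the medians over all genes kept d3’UTRs under 50 bp. Only Bmp1, Inhbb and Tgfb2 had over 100 d3’UTR reads in each library, so Inhbb and Tgfb2 are the best measured among coding entries. The coding entry of Bmp1 had no d3’UTR. For Tgfb2 they were 0.465 and 0.434, then 0.461 and 0.524, and for Inhbb 0.547 and 0.547, then 0.482 and 0.543. In the noncoding entry of Bmp1 they were 1.62 and 1.31, then 1.19 and 1.46. Tgfb3 had low ratios throughout (0.107 and 0.0491, then 0 and 0.0810), from 0 to 17 d3’UTR reads.

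Of the ligands higher in the libraries labelled WT, only Gdf6 had a d3’UTR. It held 9 reads in the WT library of the first experiment (ratio 0.302, 95% exact interval 0.137 to 0.577, counting error only) and 0 in the others, beside 521 and 21, then 180 and 14 reads upstream. With 21 and 14 upstream reads the ratio in Aire-KO was not measurable at this depth, the intervals reaching 3.36 and 5.27. Gdf10 gave 0.386 and 0.398, then 0.375 and 0.0843, the last from 8 reads. A change of usage between genotypes, tested in edgeR as the interaction of region and genotype, was called for 0 of the 8 ligands, and 0 of them had an unadjusted p under 0.05. Of all 6402 features 0% were called (0, against 105 with an unadjusted p under 0.05), and 0 were called with the block as well.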

How the data were processed

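RNA-seq counts of mTEChi came from 4 libraries, 2 labelled WT and 2 labelled Aire-KO. By the methods and the submitters' processing notes, the authors trimmed paired reads and joined them as 50 bp single reads, applied CASAVA filters, aligned to mm9 (Bowtie 1.0.0) and used bedtools to count in RefSeq exons and transcript parts. The counts were deposited raw, with no normalization. How reads with several matches were treated is not given in the sources used here. The kit does not mark strand.

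For each gene the RefSeq ID with the highest summed count was kept. Genotypes were compared with edgeR 4.0.16 (TMM, filterByExpr, quasi-likelihood test, genotype only, R 4.3.3), with p-values adjusted by Benjamini and Hochberg over all genes and a threshold of 0.05. The TMM factors of WT were 1.146 (first experiment) and 1.080, and those of Aire-KO 0.853 and 0.948. The 2 libraries of a genotype come from different experiments, and nothing says whether they came from separate pools of mice, so p-values measure the spread between these libraries, which may be technical. Libraries of one genotype correlated at 0.969 (WT) and 0.971 (Aire-KO, log CPM, Pearson). The replicate number pairs the libraries, because the study names a replicate experiment and deposited its WT and Aire-KO counts together. Deviations from the group means correlated at 0.709 within experiments over 20151 genes. Usage of the d3’UTR was tested in edgeR by the interaction of region and genotype with library as a term. The tests were checked on simulated data. RPKM used the summed length of the parts of 1 coding RefSeq ID per gene and TMM-scaled library sizes. Folds within an experiment used median-of-ratios size factors, a floor of 3 counts per library for counts of 0, and exact binomial intervals (95%) for 1 to 3 counts. Positions are from GENCODE vM1 on mm9, and promoters from RefSeq on GRCm38.p6. Python 3.11.15, numpy and pandas were used.

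Alternatives covered normalization, test (DESeq2 1.42.0), filter, RefSeq IDs, the replicate block and leaving out each library. Leaving out a library leaves 1 in its group, so the spread within that group is not measured. Calls gained or lost in those fits are a description only. Members, gene lists and alternatives were chosen with earlier results of these data known. All 34 ligands are named. Of the pathway lists, genes past the threshold and otherwise the first 2 by p are named, except for 1 gene that is counted but not reported here, with Cd68 unmatched among the markers. Protein sequences were not used here.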

Additional observations from a re-analysis of the deposited data

How the results depend on the processing

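Lefty2 was called in all 10 alternatives, Lefty1 and Gdf6 in 9 and Bmp10 in 8, and none of these 4 changed direction. Bmp2, called with the block, went from 0.88 to −0.04 on the log2 scale without the first WT library. Of 340 values (34 ligands, 10 alternatives), 306 kept their side of the threshold, 30 passed it newly and 4 no longer passed it. With the experiment as a replicate block, 9 ligands, 12 pathway genes and 3159 genes were higher, and 3, 6 and 1892 were lower. The share of calls on the higher side was then 62.5%, in place of 95.8%. DESeq2 gave 9 ligands, 8 pathway genes and 2898 genes higher, and 2 pathway genes and 432 genes lower. Library sizes alone put the median over all genes at 0.27 on the log2 scale, in place of −0.03, and gave 8, 6 and 2201 higher. Median-of-ratios factors in edgeR gave 4 pathway genes higher and 91 genes lower, and no filter gave 5 and 125. Leaving out 1 library gave 2 (without the replicate WT library) to 11 (without the first Aire-KO library) ligands higher and 0 to 1 lower. For pathway genes the ranges were 3 to 11 higher and 0 to 3 lower, and for all genes 993 to 3124 (1314 with all libraries) and 20 to 428 (58 with all libraries). Without the replicate Aire-KO library 84.4% of calls were higher. The cause was not tested. The 10 ligands past 3-fold in both experiments became 11 with library sizes alone and 12 at 2-fold. Lengths less 49 bp moved the median d3’UTR ratio from 0.392 to 0.454. Other RefSeq IDs for the d3’UTR ratio were not run. Depth limits the d3’UTR ratio of Gdf6 in Aire-KO, with 21 and 14 reads upstream, and the folds of Bmp10 and Bmp15, which are lower bounds.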

Other observations

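The d3’UTR of Gdf1 held reads although it is shorter than a read. Of 8740 annotated d3’UTRs, 409 were under 50 bp, the read length, and 35 of these had a read. That of Gdf1, 22 bp long, had 107 and 62 reads in the first experiment (WT and Aire-KO) then 50 and 186 in the replicate, beside 116 and 56, then 54 and 84 reads upstream of it. Inhbe, with few reads, had 16 reads in its d3’UTR and 18 upstream of it in the WT library of the replicate experiment, a ratio of 5.02, and 0 to 6 d3’UTR reads in the others.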
